A study of Rattus norvegicus with 6 samples.

Results

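The neurotrophins and their receptors were measured in the retinas of diabetic rats given Compound Danshen Dripping Pill (CDDP) and of untreated diabetic rats. The members were chosen by gene name. They are the ligand genes Bdnf, Ntf3, Ntf4 and Gdnf and the receptor genes Ngfr, Ntrk2, Ntrk3 and Sort1. All 8 were found among the 18166 genes tested, each on 1 probe row of the Affymetrix Rat Gene 2.0 ST array. The HCDDP group held male SD rats on a high fat diet that were made diabetic with streptozotocin (STZ, 30 mg/kg) and were then given CDDP, a preparation of Danshen, notoginseng and borneol, as a daily gavage of 0.4 g/kg over 12 weeks. The diabetic group had the same diet and STZ and received saline. The labels give 17 weeks as the age of both groups and name the treatment as Danshen without a dose. That age does not match the schedule in the methods, in which rats of 5 weeks had 4 weeks of diet before STZ and then 12 weeks of gavage, and the difference was not resolved. There were 3 arrays in each group, so that their number limits the precision of every value, and no healthy rats were on the arrays given here. STZ with a high fat diet models type 2 diabetes only in part, because STZ destroys pancreatic beta cells directly.

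Neurotrophins are secreted proteins that keep neurons alive and shape their axons and synapses. Brain-derived neurotrophic factor (BDNF) and neurotrophin 4, encoded by Bdnf and Ntf4, act through the receptor tyrosine kinase TrkB, the product of Ntrk2, and neurotrophin 3, encoded by Ntf3, acts mainly through TrkC, the product of Ntrk3. All neurotrophins also bind p75, the product of Ngfr, which with sortilin, the product of Sort1, can pass on a death signal when it meets uncleaved proneurotrophins. GDNF belongs to another family and signals through a GFRα co-receptor and the kinase Ret. In the retina, BDNF is best known as a survival factor of ganglion cells, and Müller glia are a source of neurotrophic factors.

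The promoters of ligand genes whose mean signal was higher in the HCDDP group are shown first. Bdnf is a textbook target of the transcription factor CREB, which binds the cAMP response element TGACGTCA. Whether CREB had a part in any difference between the groups was not tested. RefSeq promoters (build GRCr8, 300 bases across each start) were at hand for 5 of the 8 genes, as 12 entries, of which Bdnf has 6. Capitals mark TGACG, the core of that element, searched on both strands, so that CGTCA is the same core on the other strand. Of the 6 Bdnf entries, only the entry that holds this core is printed.
Bdnf, the fourth start, chr3:116637608-116637907, plus strand: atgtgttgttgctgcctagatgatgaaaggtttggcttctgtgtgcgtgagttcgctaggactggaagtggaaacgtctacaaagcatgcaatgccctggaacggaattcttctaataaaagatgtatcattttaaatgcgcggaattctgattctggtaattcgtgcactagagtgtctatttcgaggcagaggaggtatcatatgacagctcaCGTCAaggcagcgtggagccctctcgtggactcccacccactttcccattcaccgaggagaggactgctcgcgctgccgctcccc
Gdnf, chr2:58621077-58621376, plus strand: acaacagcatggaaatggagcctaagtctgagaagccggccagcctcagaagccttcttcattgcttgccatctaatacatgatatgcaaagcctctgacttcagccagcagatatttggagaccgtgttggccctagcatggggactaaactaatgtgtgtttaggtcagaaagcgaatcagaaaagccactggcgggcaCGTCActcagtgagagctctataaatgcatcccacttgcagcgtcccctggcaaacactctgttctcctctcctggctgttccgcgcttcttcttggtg
Ntf4, chr1:105029785-105030084, plus strand: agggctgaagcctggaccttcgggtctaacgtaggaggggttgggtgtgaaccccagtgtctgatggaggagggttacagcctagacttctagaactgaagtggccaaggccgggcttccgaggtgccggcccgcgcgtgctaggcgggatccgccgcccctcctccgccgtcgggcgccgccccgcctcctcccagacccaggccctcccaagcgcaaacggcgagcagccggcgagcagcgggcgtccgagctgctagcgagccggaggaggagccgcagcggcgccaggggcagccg
The core lay 35 bases before the start in the Bdnf entry and 49 bases before it in the Gdnf entry, and its letters are not in the Ntf4 window. It was found in 2 of the 12 entries and in 21.2% of all 33469 promoters in the table. The whole element TGACGTCA was in 1.83% of all promoters and in 0 of the 12 entries. The array gives 1 signal for a gene and does not tell the starts of Bdnf apart.

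The arrays differed in more than the treatment. Correlations between arrays across genes ran from 0.954 to 0.982. The width between percentiles 10 and 90 of log2 signal was smallest in the arrays numbered 3, with 4.48 for HCDDP and 4.45 for diabetic, where the remaining HCDDP arrays had 4.92 to 4.94 and the remaining diabetic arrays 5.16 to 5.19. The tissue is labelled retina, but the titles of the diabetic arrays say eye and those of the HCDDP arrays name no tissue. Rod markers had a mean log2 signal of 10.9 to 11.2 in HCDDP arrays and 11.0 to 11.3 in diabetic arrays (6 of 8 markers measured). Markers of neighbouring tissues were also strong, with the lens at 10.7 to 11.3 in HCDDP arrays and 10.9 to 11.4 in diabetic arrays (5 of 7 measured), and skeletal muscle at 10.7 to 11.3 in HCDDP arrays and 10.8 to 11.2 in diabetic arrays (3 of 7 measured).

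The mean signal of the 4 receptor genes was lower in the HCDDP group, and that of the ligand genes other than Ntf3 was higher, but most of these differences did not pass a test. Ngfr was the 1 gene of the 8 that passed the threshold of the methods, a p under 0.05 without adjustment and a fold change over 1.5, here with limma. Over all genes, 3.2% passed it, 0.925% higher and 2.28% lower. After Benjamini-Hochberg adjustment over all genes, 0 of the 8 passed at 0.05 (0.0055% of all genes did), while 2 of them, Ngfr and Bdnf, had an unadjusted p under 0.05, as did 6.05% of all genes. By the methods' t-test 1 of the 8, again Ngfr, passed the threshold (1.08% of all genes), 3 had an unadjusted p under 0.05 (Ngfr, Gdnf and Ntrk3, against 5.12% of all genes), and 0 passed after adjustment. HCDDP and diabetic arrays were fully apart for 4 of the 8, which were Bdnf and Gdnf, both higher, and Ngfr and Ntrk3, both lower. This was so for 10.7% of all genes, 6.43% higher and 4.3% lower. For such a gene the exact two-sided permutation test gives p = 0.1, the smallest that 3 arrays against 3 allow.

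**Figure D1:**
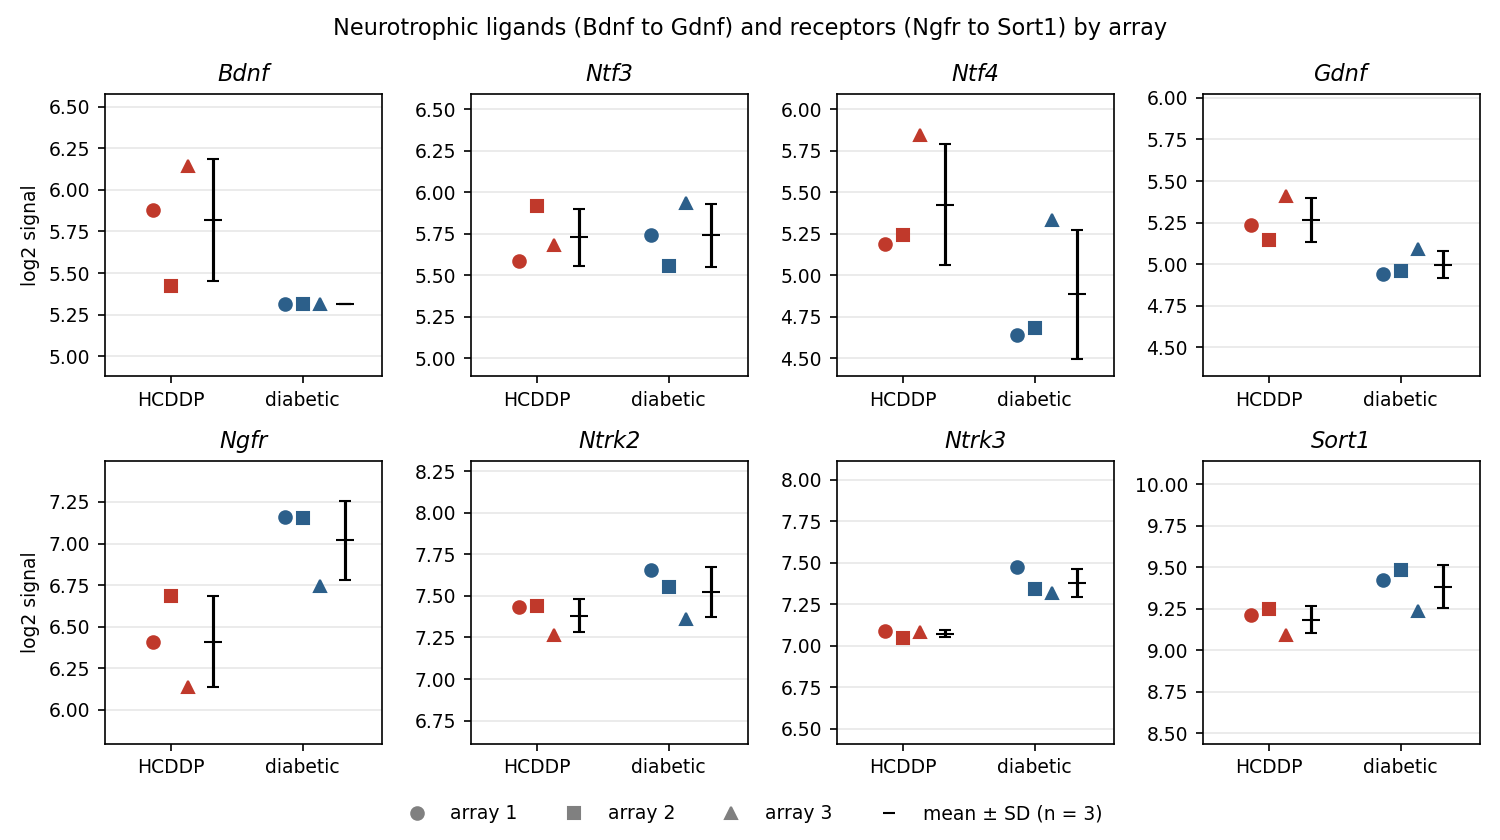
Log2 signal of the 8 genes in each array, with HCDDP left of diabetic in every panel. Points are single arrays, marked by array number, and bars are the mean ± SD (n = 3). The vertical axes differ in position but span the same range, and the groups are apart for Bdnf, Gdnf, Ngfr and Ntrk3.

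Among the ligands, Bdnf had log2 signals of 5.88, 5.42 and 6.15 in HCDDP arrays 1, 2 and 3, against 5.31, 5.32 and 5.31 in the diabetic arrays. All HCDDP arrays were higher, but HCDDP array 2 only slightly. Bdnf thus averaged 5.82 ± 0.37 with HCDDP and 5.31 ± 0.0013 without it (SD, n = 3 each). The log2 difference was 0.50 with a 95% interval of 0.03 to 0.97, or 1.42-fold (adjusted p = 0.782, limma). The values of diabetic arrays 1 and 3 were identical in the table. Identical values among the diabetic arrays occurred for 350 genes, and a diabetic SD as small as that of Bdnf for 22 genes, itself among them. The spread of Bdnf within the diabetic group is therefore not a usable guide to its error, and limma replaces part of it with that of all genes. Without HCDDP array 2 the difference was 0.70 and Bdnf passed the threshold, and without HCDDP array 3 it was 0.34.

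Ntf4 lay at 5.19, 5.24 and 5.85 in HCDDP arrays 1, 2 and 3, and at 4.64, 4.68 and 5.33 in the diabetic arrays. Both arrays numbered 3 stood above the others of their group, and diabetic array 3 was higher than HCDDP arrays 1 and 2, so the groups overlapped. Between arrays of the same number, however, the differences were 0.55, 0.56 and 0.51. The means were 5.43 ± 0.37 in the HCDDP group and 4.89 ± 0.39 in the diabetic group (SD, n = 3 each), a difference of 0.54 with an interval of −0.05 to 1.13 (adjusted p = 0.782, limma). With the array number as a block, the interval was 0.22 to 0.86 and the unadjusted p was 0.00595 (adjusted p = 0.293, limma), and the fold stayed under 1.5. Ntf4 was then the third of the 8 genes with an unadjusted p under 0.05, beside Ngfr and Bdnf. Whether the array numbers mark pairs was not tested. Without diabetic array 3 the log2 difference was 0.76 and Ntf4 passed the threshold, and without HCDDP array 3 it was 0.33.

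Gdnf had 5.24, 5.15 and 5.41 in the HCDDP arrays, against 4.94, 4.96 and 5.09 in the diabetic arrays. The groups were apart by a narrow gap, with HCDDP array 2 nearest to diabetic array 3. The log2 difference was 0.27, with an interval of −0.10 to 0.63 (adjusted p = 0.784, limma), which reaches past 1.5-fold on the higher side only. Ntf3 was at 5.58, 5.92 and 5.68 in the HCDDP arrays and at 5.74, 5.55 and 5.93 in the diabetic arrays. The groups were interleaved, and the difference was −0.01, with an interval of −0.42 to 0.39 (adjusted p = 0.990, limma). The sign of this value turned in 6 of 16 alternatives.

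Among the receptors, Ngfr had log2 signals of 6.41, 6.68 and 6.14 in HCDDP arrays 1, 2 and 3, against 7.16, 7.15 and 6.75 in the diabetic arrays. Every diabetic array was above every HCDDP array, although diabetic array 3 was only just above HCDDP array 2. The mean was 6.41 ± 0.27 in the HCDDP group and 7.02 ± 0.24 in the diabetic group (SD, n = 3 each). The log2 difference was −0.61 with an interval of −1.08 to −0.14, a signal 1.53-fold lower (adjusted p = 0.782, limma). Ngfr stands among the genes that the study selected on these same arrays, so its direction is not independent evidence. It lost the threshold without HCDDP array 3 (−0.47) and without diabetic array 1 or 2 (−0.54 each), and after quantile normalization (−0.57) or median centring (−0.58). Without both arrays numbered 3 it remained past it, at −0.61.

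Ntrk3 was at 7.09, 7.05 and 7.08 in the HCDDP arrays, which lay close together, and at 7.48, 7.34 and 7.32 in the diabetic arrays. All diabetic arrays were above, and the difference was −0.31, with an interval of −0.65 to 0.04 (adjusted p = 0.782, limma). Ntrk2 was at 7.43, 7.44 and 7.26 in the HCDDP arrays and at 7.66, 7.55 and 7.36 in the diabetic arrays. Here diabetic array 3 fell between HCDDP arrays, and the difference was −0.14, with an interval of −0.52 to 0.23 (adjusted p = 0.858, limma). The Ntrk2 transcript exists with and without the kinase domain, and 1 signal per gene does not separate these forms. Sort1 had 9.21, 9.25 and 9.09 in the HCDDP arrays and 9.42, 9.49 and 9.24 in the diabetic arrays, overlapping only through diabetic array 3. Its difference was −0.20, with an interval of −0.56 to 0.16 (adjusted p = 0.805, limma). For Ntrk2 and Sort1 the intervals stay within 1.5-fold in both directions.

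**Figure D2:**
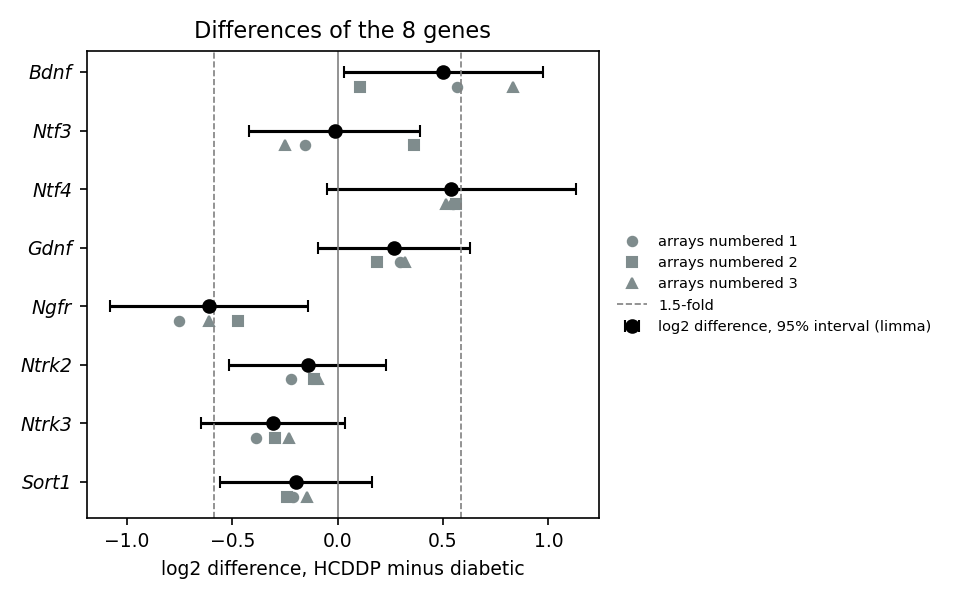
Log2 difference, HCDDP minus diabetic, of the 8 genes on the horizontal axis. Black points with bars are the limma estimate and its 95% interval, grey symbols are the differences between arrays of the same number, and dashed lines mark 1.5-fold. The 3 same-number differences share a sign for every gene but Ntf3.

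Compared by array number, 7 of the 8 genes kept 1 sign in all 3 pairs, 3 higher and 4 lower in the HCDDP group. The share over all genes was 37.1%, with 17.6% higher and 19.6% lower. For the 4 genes whose groups were fully apart, any pairing gives 1 sign, so their count here adds nothing to that. The numbers come from the labels, which do not say that they mark a shared batch. Deviations of same-numbered arrays from their group means were correlated across genes. Arrays of different numbers were not compared in this way, so pairing by number was not tested. The members moved with each other as well. Over the 6 arrays, Gdnf and Ngfr had r = −0.99, Ntf4 and Ntrk2 −0.97, and Ngfr and Sort1 0.96, while Ntf3 and Ngfr had 0.00. These 6 points share the grouping and the array numbers, so the values are descriptions only.

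The genes with a higher mean in the HCDDP group were weak on the arrays, and the receptors were stronger. The receptors lay between percentiles 60.5 and 96.3 of all genes by mean signal, and the ligands at 40.4 (Ntf3), 37.4 (Bdnf), 30.4 (Ntf4) and just under that (Gdnf). Among all genes below the median signal, 55.8% were higher in the HCDDP group, with a median log2 difference of 0.04, and among those above it 59.0% were lower, with a median of −0.055. The share of this general shift in the difference of each gene was not tested. Set beside the median of genes in the same of 10 equal signal classes, Ngfr was at −0.61 against −0.06, Ntf4 at 0.54 against 0.05, Bdnf at 0.50 against 0.05, Ntrk3 at −0.31 against −0.05 and Sort1 at −0.20 against −0.08.

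**Figure D3:**
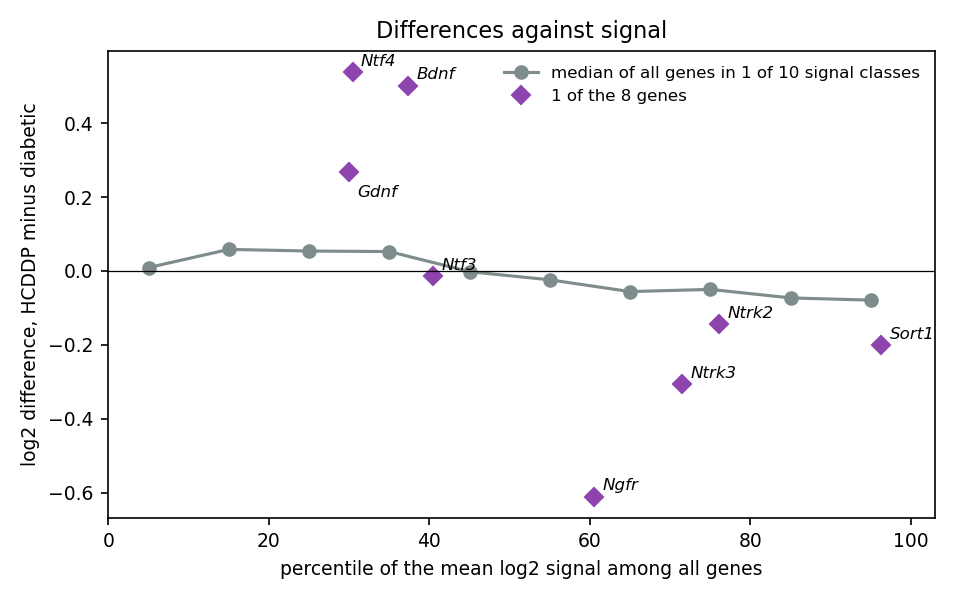
Log2 difference, HCDDP minus diabetic, against the percentile of the mean log2 signal. The grey line joins the median of all genes in each of 10 equal signal classes, which lies above 0 in the weakest 4 classes and falls to −0.08 in the strongest, and diamonds are the 8 genes. Ngfr, Ntf4 and Bdnf lie farthest from the line.

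Marker lists of several cell types and tissues, neuronal and non-neuronal, lay lower in the HCDDP group as Ngfr did, and others did not. For corneal and scleral stroma, marker genes averaged 9.40 to 9.63 log2 units across HCDDP arrays and 9.96 to 10.1 across diabetic arrays. All 10 were measured, with 9 of them lower in the HCDDP group and 4 past the threshold (median −0.51). The collagen genes Col1a1 (0.12) and Col1a2 (−0.03) differed little. Kera, a proteoglycan of the cornea, was at 8.20, 8.54 and 8.32 in the HCDDP arrays and at 9.23, 9.82 and 9.31 in the diabetic arrays. Of the markers of myelin and Schwann cells, which carry p75 in nerve, 7 of 9 were measured, and their mean log2 signal was 6.50 to 6.53 in HCDDP arrays and 6.54 to 6.59 in diabetic arrays. Only Pmp22, a protein of peripheral myelin that other cells also make, passed the threshold among these 7, at 9.35, 9.40 and 8.96 in the HCDDP arrays and 10.2, 10.1 and 9.61 in the diabetic arrays. The log2 differences of the other markers in that list ran from −0.15 (Cldn19) to 0.28 (Mag), with Mbp at 0.21 and Mog at 0.22, and 3 of them had a higher mean in the HCDDP group. Markers of intestinal epithelium, which are weak on these arrays, averaged 4.11 to 4.18 in HCDDP arrays and 5.15 to 5.89 in diabetic arrays, and 7 of 8 passed the threshold as lower. The study selected Fabp1, Fabp2, Apob, Si and Reg3b of this list on these same arrays, and Kera, Prelp, Fmod, Chad and Pmp22 too. The counts past the threshold in these lists are therefore not independent evidence. Müller glia markers had 8.27 to 8.41 in HCDDP arrays and 8.37 to 8.79 in diabetic arrays (7 of 8 measured). Of these, 5 had a lower mean (median log2 difference −0.33), with Clu past the threshold and lower. The other 2, Rlbp1 (0.06) and Sox9 (0.10), had a higher mean in the HCDDP group. Ganglion cell markers had 7.08 to 7.28 in HCDDP arrays and 7.18 to 7.48 in diabetic arrays (9 of 9 measured). All 9 had a lower mean in the HCDDP group, and 0 of them passed with limma, at an unadjusted p under 0.05 as well. Amacrine and bipolar markers had 7.40 to 7.65 in HCDDP arrays and 7.52 to 8.10 in diabetic arrays (9 of 10 measured). All 9 again had a lower mean, with a median log2 difference of −0.33, 3 had an unadjusted p under 0.05 (limma), and Pcp2 passed the threshold at −1.18. Lens markers were lower in mean for 4 of 5 (median −0.15), near the median of −0.18 for ganglion cells. Medians were also below 0 for rods (−0.30, 4 of 6 lower) and pigment epithelium (−0.25, 6 of 7 lower). For pericytes and smooth muscle the median was −0.08 (3 of 5 lower), with Pdgfrb past the threshold and lower. Of the endothelial markers, by contrast, 3 of 5 had a higher mean in the HCDDP group (median 0.05), and the median was 0.09 for skeletal muscle. Retinal astrocyte markers (4 of 5 measured) were lower in mean for 2 and higher for 2, with a median of −0.10. In the endothelial, skeletal muscle, lens and retinal astrocyte lists 0 passed the threshold (limma, 0 at an unadjusted p under 0.05). The part of these cell types in the Ngfr difference was not tested, and in bulk tissue fewer cells of a type and less RNA per cell cannot be told apart.

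**Figure D4:**
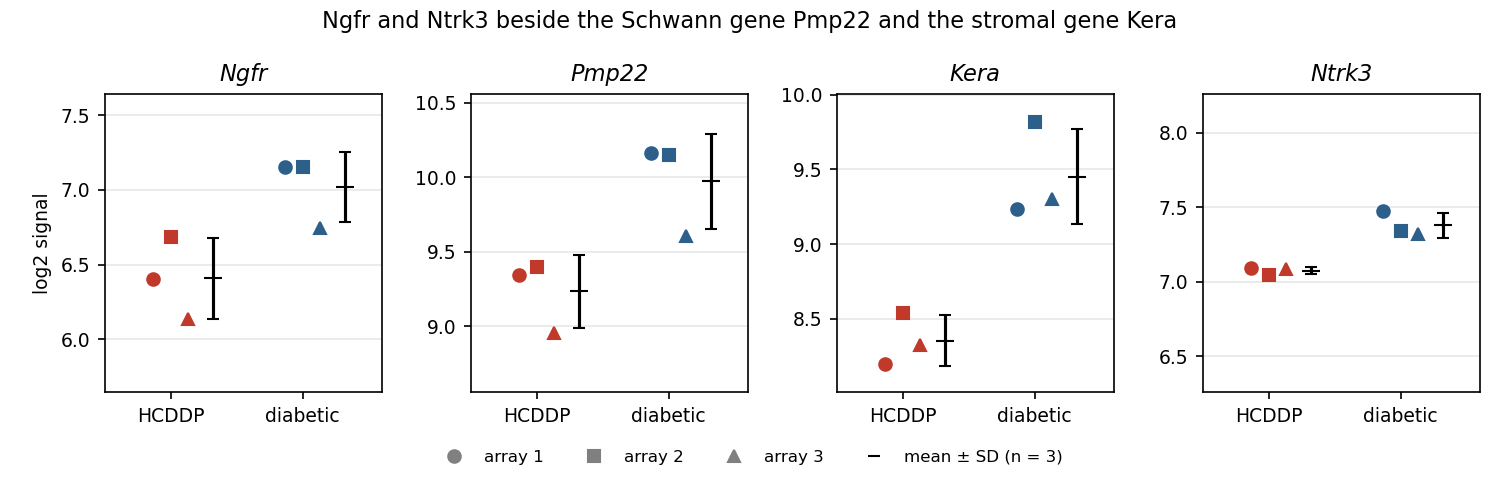
Log2 signal of Ngfr, Pmp22, Kera and Ntrk3 in each array, with HCDDP left of diabetic. Points are single arrays, marked by array number, and bars are the mean ± SD (n = 3). All 4 genes are lower in every HCDDP array than in any diabetic array. Pmp22 and Kera were picked after their values were seen, and the arrays overlapped for the other myelin markers.

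The genes most like Ngfr over the 6 arrays were Abi3bp, a matrix protein (Pearson r = 0.999), Shld1 (0.995), a factor of DNA break repair, and Ap2b1 (0.993), an adaptor of clathrin vesicles. Abi3bp was at 8.86, 9.13 and 8.51 in the HCDDP arrays and at 9.78, 9.76 and 9.27 in the diabetic arrays, the same order of arrays as for Ngfr. It is also among the genes that the study selected on these arrays. The genes most like Ntrk2 were Maea (0.998), Ehd2 (0.998) and Ascc1 (0.997). With 6 arrays such values are common, since 139 genes had r above 0.95 with Ngfr and 382 with Ntrk2.

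Beyond the 8 genes, 116 of 133 listed genes of neurotrophic signalling were measured, and 6 of them, or 5.17%, passed the threshold, all lower in the HCDDP group, where 2.28% of all genes were lower past it. Their median log2 difference was −0.04, against −0.01 over all genes. The share of all genes past the threshold in either direction was 1.43% in the weakest of 10 signal classes and 5.23% in the strongest. The wider genes were not compared with genes of like signal. Of the 4 ligands of the GDNF family 0 passed with limma, also at an unadjusted p under 0.05. Beside Gdnf, the log2 difference was 0.29 for Pspn (persephin), 0.11 for Nrtn (neurturin) and −0.04 for Artn (artemin), each with overlapping arrays.

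The receptors of the GDNF family held Gfra2, the co-receptor of neurturin, at 6.73, 6.39 and 6.44 in the HCDDP arrays and 7.89, 8.30 and 6.44 in the diabetic arrays. Diabetic array 3 lay among the HCDDP arrays, and the difference was −1.03 (standard error 0.42, adjusted p = 0.782, limma). Gfra2 lost the threshold when any array other than diabetic array 3 was left out, at −0.65 to −1.13, and was at −1.58 without that array. It also lost it by the methods' t-test and when all probe rows were fitted. Gfra1, the co-receptor of GDNF itself, had a difference of −0.35 and Ret of −0.20, neither past the threshold, and the 8 genes of this list had a median of −0.27. In the sortilin family, Sorcs2, another partner of p75, had 7.01, 7.50 and 7.25 in the HCDDP arrays and 6.69, 6.59 and 6.86 in the diabetic arrays. The arrays did not overlap, but its difference of 0.54 stayed short of 1.5-fold, and 0 of the 5 genes passed with limma, although Sorcs2 had an unadjusted p of 0.0178.

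Among 12 genes that cleave proneurotrophins or inhibit or bind these proteases and their substrates, A2m passed the threshold. It encodes a broad protease inhibitor that also binds neurotrophins, and it was at 9.63, 9.73 and 9.72 in the HCDDP arrays and 10.5, 10.6 and 10.5 in the diabetic arrays. Its difference was −0.84 (standard error 0.15, adjusted p = 0.782, limma), and it kept the threshold in all 17 alternatives. The study selected A2m on these arrays too. The convertase gene Furin had a difference of 0.23, and the median of the list was −0.01.

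Of 17 partners and adaptors of p75, 2 passed the threshold and were lower. Mapk10, a JNK kinase of neurons, was at 6.48, 7.25 and 7.15 in the HCDDP arrays and at 8.55, 9.19 and 7.10 in the diabetic arrays. Ndn, which encodes necdin, was at 6.96, 6.90 and 7.05 in the HCDDP arrays and at 7.64, 7.93 and 7.11 in the diabetic arrays. In both genes diabetic array 3 was close to the HCDDP arrays and the other diabetic arrays were higher. The differences were −1.32 for Mapk10 and −0.59 for Ndn. Mapk10 lost the threshold when HCDDP array 1 (−1.08), HCDDP array 3 (−1.42), diabetic array 1 (−1.18) or diabetic array 2 (−0.87) was left out, and Ndn without any array other than diabetic array 3, at −0.40 to −0.63, and after quantile normalization (−0.50) or median centring (−0.56). Both also lost it by the methods' t-test.

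Downstream, 0 of 42 Trk adaptors and kinases passed the threshold with limma, with a median of −0.02, and the 1 with an unadjusted p under 0.05 was the adaptor gene Shc2, with a log2 difference of 0.41. Of 17 genes induced by Trk activity, which other stimuli also induce, the early response genes Nr4a1 and Egr1 passed and were lower. The median of this list was −0.05, with 10 genes lower in mean and 7 higher, Egr3 (0.49) and Fosb (0.39) among the higher. Egr1 was at 8.90, 8.65 and 8.13 in the HCDDP arrays and at 10.2, 9.61 and 8.61 in the diabetic arrays, so that diabetic array 3 lay below 2 HCDDP arrays. The differences were −0.95 for Nr4a1 and −0.90 for Egr1. Both lost the threshold when HCDDP array 2, HCDDP array 3, diabetic array 1 or diabetic array 2 was left out, at −0.61 to −0.98 for Nr4a1 and −0.55 to −0.94 for Egr1. Both also lost it by the methods' t-test, and Egr1 when all probe rows were fitted. Vgf, a secreted peptide precursor induced by BDNF, had a difference of 0.19, and Fos of −0.35. Among 13 other neurotrophic factors and receptors 0 passed with limma, also at an unadjusted p under 0.05, and the smallest p was that of Clcf1, a cytokine of the CNTF receptor, with a log2 difference of 0.36.

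**Figure D5:**
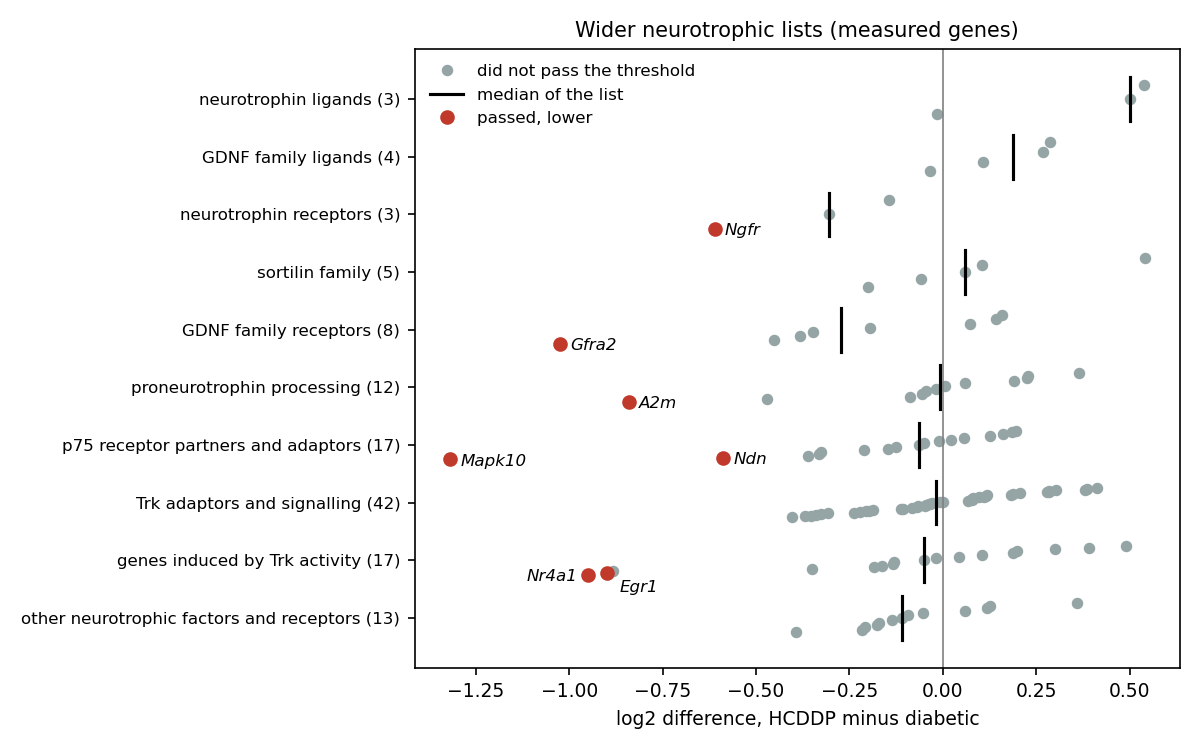
Log2 difference, HCDDP minus diabetic, of each measured gene in 10 lists of neurotrophic signalling, with the number of genes in brackets. Grey points did not pass the threshold, red points passed it and were lower, and black lines are list medians. The 7 red points are Ngfr, Gfra2, A2m, Mapk10, Ndn, Nr4a1 and Egr1, and 0 genes passed on the higher side.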

How the data were processed

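Retinal RNA was hybridized to Affymetrix Rat Gene 2.0 ST arrays, 3 for the HCDDP group and 3 for the diabetic group. Expression Console Software 1.41 was run by the authors, who deposited 1 log2 signal per probe row and array. How it was background-corrected and summarised stands in none of the sources used here. Of 36685 probe rows, 18511 had exactly 1 gene symbol, 575 several and 17599 none, and the row with the highest mean was kept for each of 18166 genes. For 18394 of the rows with 1 symbol, the gene identifier was found in RefSeq and the RefSeq symbol was used, whether or not it differed. The remaining rows kept the platform symbol. No filter or further normalization was applied. Groups were compared with limma 3.58.1 in R 4.3.3 (lmFit, eBayes), tested on simulated data, with p-values adjusted by Benjamini-Hochberg over all genes. Promoter motifs, signal classes and figures used Python 3.11.15, pandas 2.3.3 and matplotlib 3.10.9, and array weights statmod 1.5.0.

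The members and lists were chosen with earlier results of these data known. Of the wider lists, genes past the threshold were named, otherwise the 1 with the smallest p, and for Ngfr and Ntrk2 the 3 genes with the highest r. Some further values (Gfra1, Ret, Furin, Vgf, Fos, Fosb, Egr3, Kera, Col1a1, Col1a2, Pmp22, Clu, Rlbp1, Sox9, Pdgfrb) were chosen after they were seen. Neither the labels nor the methods say whether an array held 1 rat, so the spread behind each p-value is that between these samples and may be technical. After group means were removed, same-numbered arrays correlated across genes at 0.274, 0.292 and 0.445, so the replicate number was tried as a block. The same correlation was not computed for arrays of different numbers, so these values do not show that the numbers mark pairs.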

Additional observations from a re-analysis of the deposited data

How the results depend on the processing

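The 8 genes were refitted under up to 17 alternatives. In all of those that gave a value, Bdnf (0.34 to 0.70), Ntf4 (0.33 to 0.76) and Gdnf (0.19 to 0.33) kept a positive log2 difference and Ngfr (−0.75 to −0.47), Ntrk2 (−0.23 to −0.07), Ntrk3 (−0.34 to −0.23) and Sort1 (−0.27 to −0.07) a negative one. Bdnf, Ntf3, Ntf4 and Gdnf lie below the median signal and have no value among genes above it. The log2 difference of Ntf3 (−0.11 to 0.081 with 1 array left out) turned positive with array weights (0.15), median centring (0.018), without HCDDP array 1 (0.06), HCDDP array 3 (0.01), diabetic array 3 (0.081) or both arrays numbered 3 (0.10). The count of the 8 genes past the threshold, 1, was 2 with array weights and 0 after quantile normalization or median centring, and 0 to 2 with 1 array left out. The count past an adjusted p stayed at 0 of 8 in every alternative run, single arrays left out included (0 to 0). With the replicate number as a block, 1 of the 8 and 840 of all genes passed the threshold, 7 of the wider genes did, and no call of the 8 changed, although the unadjusted p of Ntf4 was then under 0.05 (limma).

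The 582 of 18166 genes past the threshold became 196 with the methods' t-test, 1362 with array weights and 1482 without both arrays numbered 3. In sets of other sizes, the count was 381 of 9083 genes above the median signal and 1898 of 36685 probe rows. It was 323 to 1984 with 1 array left out (323 without HCDDP array 3, 361 and 352 without diabetic arrays 1 and 2, 1984 without diabetic array 3). The 6 wider genes became 1 with the methods' t-test, 11 without both arrays numbered 3 and 1 to 13 with 1 array left out. The cause of these changes was not tested. The signal over background is unknown, so it cannot be said which weak rows measure their gene.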
